A study of Mus musculus with 2 samples.

Results

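Prostaglandin synthesis and signalling genes were followed across the cell classes of the mouse uterus on gestational day 4. The members are 10 genes taken by symbol from the 31053 genes listed for each library: the phospholipase gene Pla2g4a, the cyclooxygenase genes Ptgs1 and Ptgs2, the terminal synthase genes Ptges and Ptgis, the breakdown gene Hpgd and the receptor genes Ptger2, Ptger3, Ptger4 and Ptgfr. All 10 were found, each under 1 identifier. The study profiled single cells of whole uterus from Mettl14 d/d mice, a notation for deleted alleles, and from Mettl14 f/f mice, a notation for the same alleles with recombination sites still in place. Each genotype is 1 library. The labels give neither the Cre driver, the deleted exons, the animals' age or strain, nor how many animals went into a library. Mettl14 encodes a subunit of the enzyme complex that places N6-methyladenosine on RNA. With a single library per genotype no test between genotypes can be made, and p-values are left out throughout. Every 95% interval covers counting error only, and a UMI is 1 captured molecule. The ratios therefore compare these libraries.

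Prostaglandins are short-lived lipids made from arachidonic acid. A phospholipase releases the acid from membranes, a cyclooxygenase turns it into the unstable prostaglandin H, and terminal synthases convert this into prostaglandin E, prostacyclin and others, which act on G protein-coupled receptors of nearby cells and are inactivated by a dehydrogenase. In the mouse uterus this pathway is known for its part in embryo implantation and in contraction of the muscle wall.

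After filtering, 5977 d/d cells with a median of 5217 unique molecular identifiers (UMIs) and 7095 f/f cells with a median of 6085 UMIs remained, and 8 barcodes occurred in both libraries. Mettl14 itself stood at 5.53 CPM (its UMIs scaled to 1000000 UMIs of the summed cells) over all d/d cells (223 UMIs) and at 15.5 CPM over all f/f cells (753 UMIs). In stroma-like cells it had 2.46 CPM in d/d and 14.6 CPM in f/f, and in blood endothelium-like cells 18.3 CPM in d/d and 18.9 CPM in f/f. A tag at the 3′ end may lie outside the deleted part, so these levels are no direct measure of the deletion. Cells were clustered without the members and the other pathway genes, and clusters were named from marker genes and carry "-like" in their names. The makeup differed: stroma-like cells numbered 1710 in d/d and 4595 in f/f, smooth muscle-like cells 1477 in d/d and 445 in f/f, and pericyte-like cells 1194 in d/d and 378 in f/f. The other classes compared were blood endothelium (604 d/d and 492 f/f cells), macrophage or monocyte (308 d/d and 240 f/f), epithelium (146 d/d and 182 f/f) and dendritic cells (137 d/d and 159 f/f). Every class name below stands for cells that resemble the type by these markers. Stromal markers outside stroma differed too: they reached 4.22%, 1.94% and 28.8% of their stromal level in d/d macrophage-like, T cell-like and pericyte-like cells, against 37.3%, 41.7% and 63.0% in the same f/f classes. The stromal level itself was 18050 CPM in d/d and 10215 CPM in f/f, so these percentages have different bases. In CPM the markers stood at 762 in d/d and 3812 in f/f macrophage-like cells. They had 349 in d/d and 4260 in f/f T cell-like cells, and 5199 in d/d and 6433 in f/f pericyte-like cells. The part of these markers in the results was not tested.

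**Figure D1:**
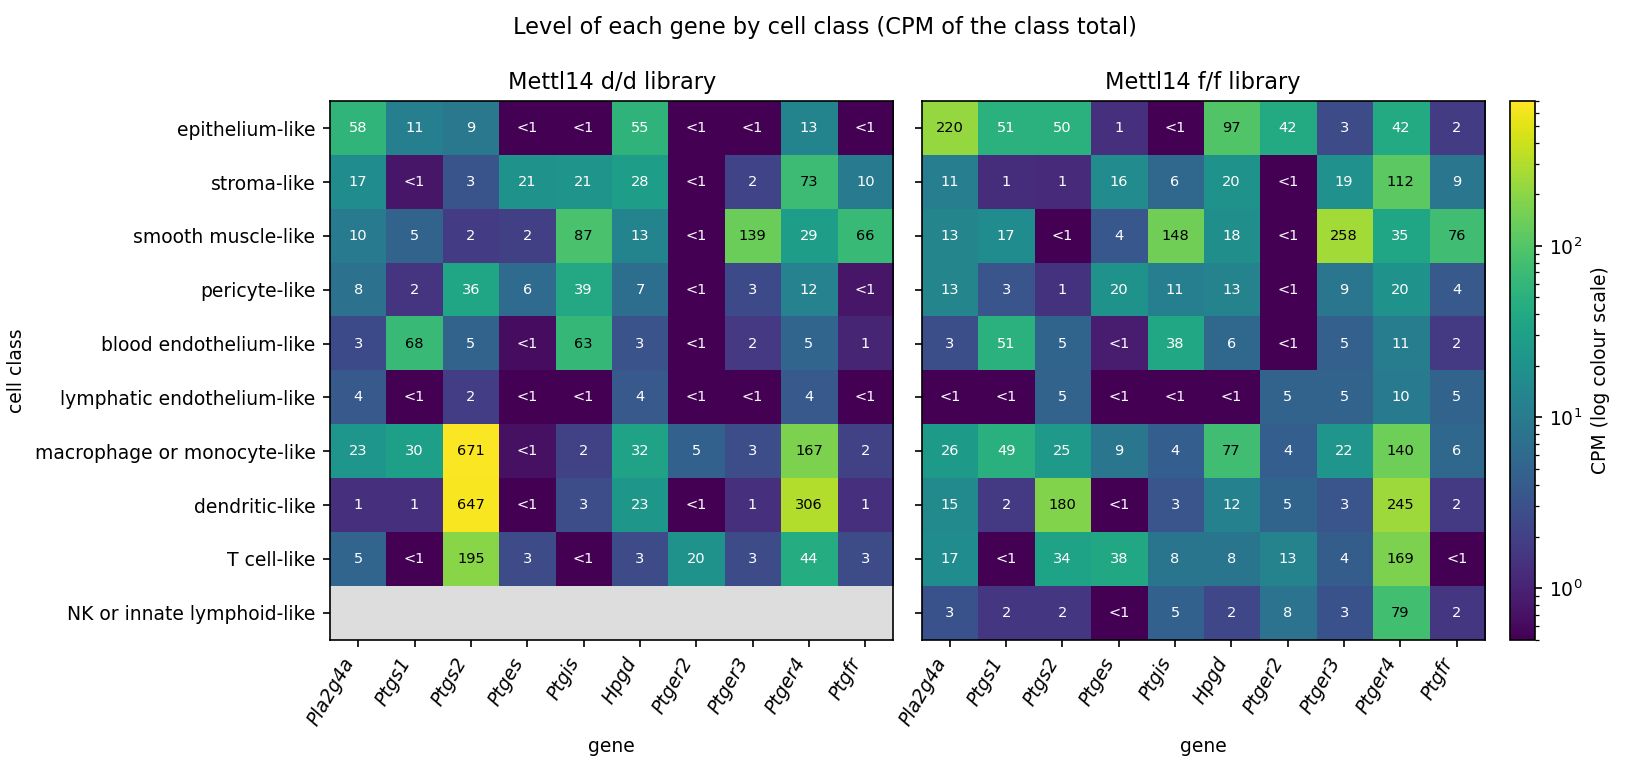
Level of each of the 10 genes in CPM of the class total (log colour scale, values printed in the cells) for cell classes with at least 50 cells, in the d/d library on the left and the f/f library on the right; grey marks a class with fewer cells. Pla2g4a and Hpgd are highest in epithelium-like cells, Ptgis, Ptger3 and Ptgfr in smooth muscle-like cells and Ptger4 in dendritic-like cells in both libraries, while Ptgs2 reaches 671 CPM in d/d macrophage-like cells, against 24.6 CPM in f/f.

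Most of the genes had a narrow set of source or receiver classes. Among classes with at least 50 cells, 6 of the 10 had the same leading class in both libraries. These were Pla2g4a and Hpgd (epithelium), Ptgis, Ptger3 and Ptgfr (smooth muscle) and Ptger4 (dendritic cells). In f/f 2 of these leads were within counting error, as the intervals of the first and second class overlapped. For Hpgd these were epithelium (97.4 CPM) and macrophages (76.6 CPM), and for Ptger4 dendritic cells (245 CPM) and T cells (169 CPM). Between libraries the largest shifts among the pairs called below were in Ptger2, Ptgs2 and Ptger3. Ptger2 had 2 UMIs in d/d epithelium against 93 in f/f. Ptgs2 was higher in d/d macrophages and pericytes. Ptger3 was lower in d/d stroma, with 28 UMIs against 653 in f/f (ratio 0.111). By less than these, Ptgs2 was also higher in d/d dendritic cells and lower in d/d epithelium. For 7 classes each library held 100 cells or more, which makes 70 pairs of a gene and a class, and 27 had at least 50 UMIs in the higher library. Of these 27 pairs, 5 were at least 2-fold higher and 8 at least 2-fold lower in d/d, and 14 lay within 2-fold. Over all genes measured in the same classes, the share called ranged by class between 4.93% and 15.0% higher and between 2.12% and 10.9% lower, and each class's shares stand below beside its members. The 43 pairs with fewer UMIs were not called. The minimum applies to the library with the higher CPM alone, which can favour pairs that differ. These counts therefore describe only the pairs that could be measured.

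**Figure D2:**
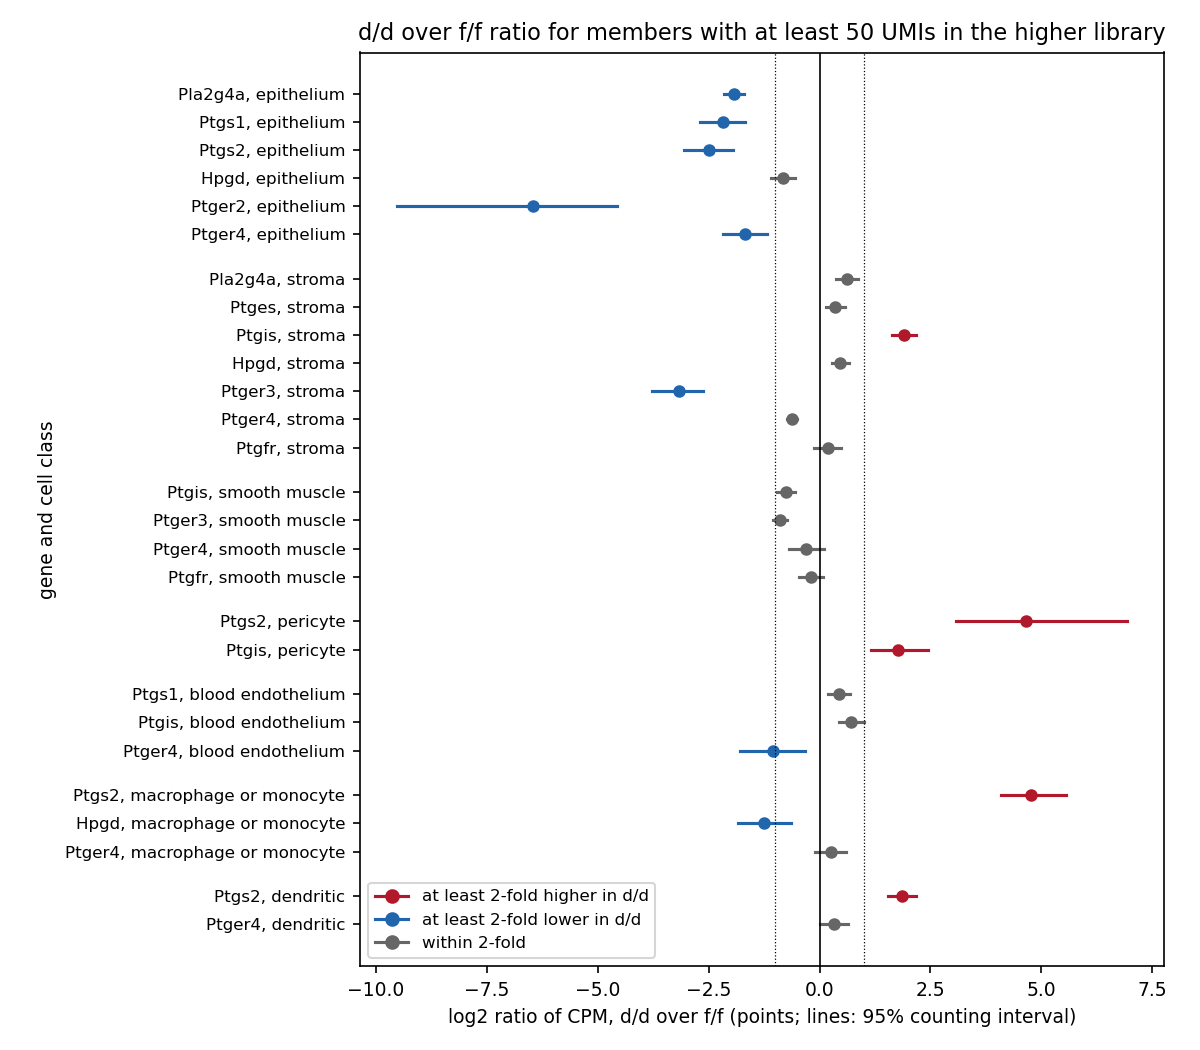
Ratio of d/d over f/f CPM on a log2 scale for the 27 measured pairs of gene and cell class; points are ratios, lines 95% counting intervals, and dotted lines mark 2-fold. Of 6 measured genes in epithelium 5 lie below the lower line, and the 4 measured in smooth muscle lie between the lines.

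The gene for the releasing enzyme was highest in epithelium. Pla2g4a (ENSMUSG00000056220, minus strand, chr1:149829618-149961290, GRCm38) encodes cytosolic phospholipase A2, which frees arachidonic acid from membrane lipids. It stood at 57.6 CPM in d/d epithelium (243 UMIs, interval 50.6 to 65.3) and 220 CPM in f/f epithelium (488 UMIs, 201 to 240), a ratio of 0.262 (0.224 to 0.306). After each cell was thinned to 2000 UMIs, 13.1% of d/d and 36.4% of f/f epithelial cells held a UMI, against 0.573% of d/d and 0.451% of f/f blood endothelial cells. The next class, macrophages, stood at 22.6 CPM in d/d and 26.0 CPM in f/f. In stroma the gene had 16.8 CPM in d/d and 10.9 CPM in f/f (ratio 1.53, 1.29 to 1.82), and 24.5 CPM in d/d and 23.8 CPM in f/f within cluster 4, the 1 stromal cluster that held at least 100 cells of each library. Epithelium was the leading class in both libraries, at a lower level in d/d.

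Over all genes measured in epithelium, 8.56% were at least 2-fold higher and 10.7% at least 2-fold lower in d/d, and of the 6 members measured there 5 were lower (Pla2g4a, Ptgs1, Ptgs2, Ptger2 and Ptger4) and 0 higher. The epithelial cells of the libraries did not share clusters. In f/f they divided into 74 luminal-like cells, from the lining that meets the embryo, and 107 of glandular type. The 146 d/d cells included only 1 in the luminal sub-cluster and 1 in the glandular sub-cluster. The others lay in sub-clusters led by Cldn4, Cxcl15 and Pigr that were named as neither part, although Cxcl15 is 1 of the glandular markers used. A part was named only where the mean log2 level of its markers, relative to all epithelial sub-clusters, reached 1. The larger of these sub-clusters (124 d/d cells) had -0.12 for glandular and -0.49 for luminal markers. The other (20 d/d cells) had -0.54 for glandular and -1.44 for luminal markers. The d/d cells were also deeper, with a median of 16379 UMIs against 9354.5 in f/f. The class ratio therefore sets d/d cells against a mixture, and d/d cells were also compared with each f/f part.

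**Figure D3:**
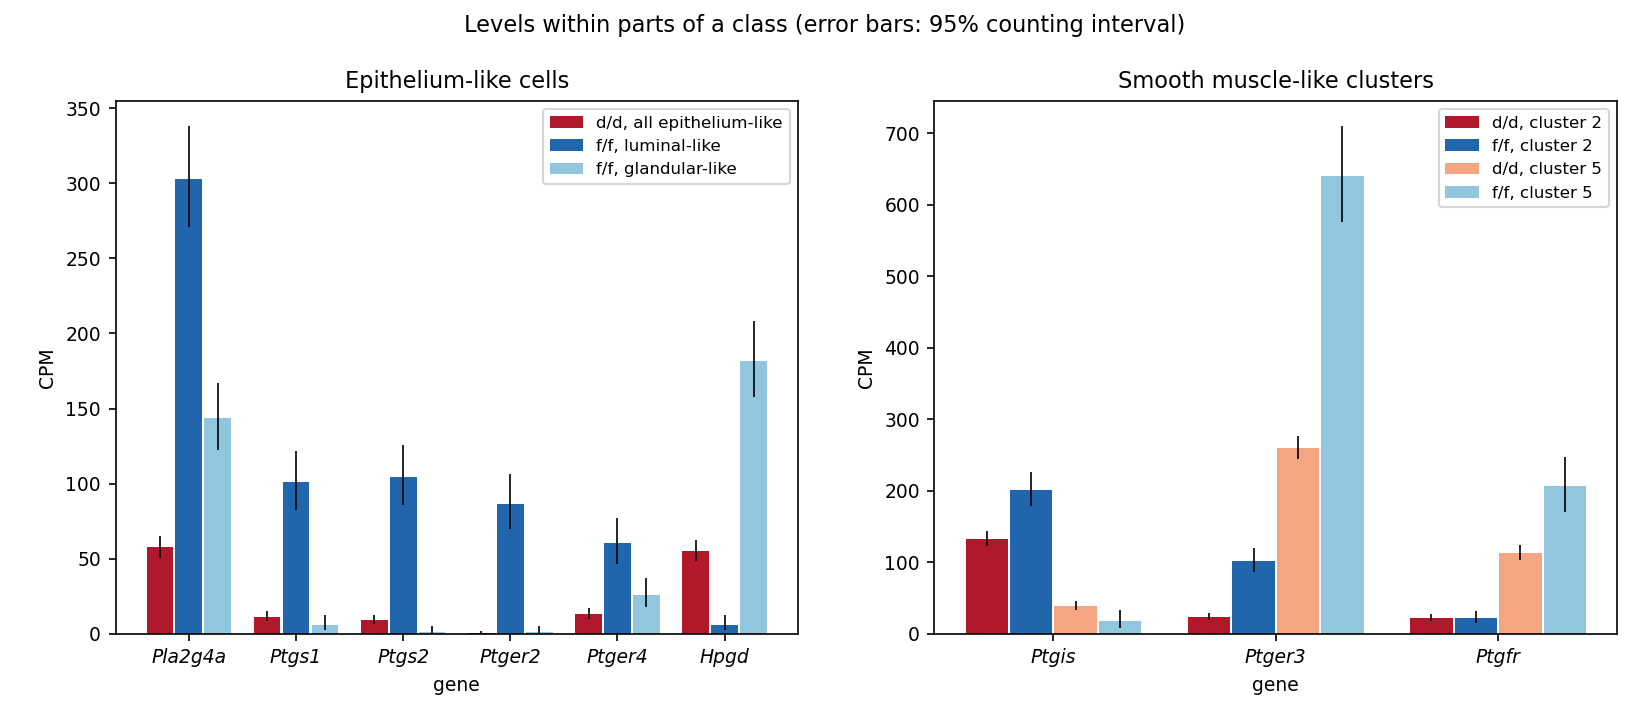
CPM within parts of a class, with 95% counting intervals as error bars and axes from 0. Left: d/d epithelium-like cells (146) beside f/f luminal-like (74) and f/f glandular-like (107) cells, where 5 genes are highest in the f/f luminal-like cells and Hpgd in the f/f glandular-like cells. Right: smooth muscle-like clusters 2 and 5 in d/d and f/f, where Ptgis is highest in cluster 2 and Ptger3 and Ptgfr in cluster 5 of both libraries.

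In f/f the 2 epithelial parts carried different members. Luminal-like cells had 303 CPM of Pla2g4a, 105 CPM of Ptgs2, 101 CPM of Ptgs1, 86.6 CPM of Ptger2, 60.3 CPM of Ptger4 and 5.65 CPM of Hpgd. Glandular-like cells had 144 CPM of Pla2g4a, 0.865 CPM of Ptgs2, 6.06 CPM of Ptgs1, 0.865 CPM of Ptger2, 26.0 CPM of Ptger4 and 182 CPM of Hpgd. Of the genes listed here, the synthesis genes and receptors were thus higher in the lining and the breakdown gene in the glands. Ptges, Ptgis, Ptger3 and Ptgfr had at most 4 UMIs in either part, too few to place. Against f/f luminal-like cells, d/d epithelium was lower by ratios of 0.190 for Pla2g4a, 0.113 for Ptgs1, 0.0862 for Ptgs2, 0.00547 for Ptger2 and 0.220 for Ptger4, and was higher for Hpgd by 9.73 (4.40 to 26.8). Against f/f glandular-like cells Pla2g4a (0.401, 0.328 to 0.491) and Hpgd (0.303, 0.250 to 0.366) were lower, while the ratios for Ptgs1 (1.88, 0.845 to 4.92) and Ptgs2 (10.4, 1.76 to 422) lay above 1, the last on a single f/f UMI.

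Ptgs1 (ENSMUSG00000047250, plus strand, chr2:36230426-36252272) encodes cyclooxygenase 1, often described as the constitutive form. Blood endothelium, with 68.5 CPM in d/d (326 UMIs, 61.3 to 76.3) and 50.6 CPM in f/f (233 UMIs, 44.3 to 57.5), led in d/d and stood level with epithelium in f/f. Epithelium had 11.4 CPM in d/d (48 UMIs) and 51.4 CPM in f/f (114 UMIs), a ratio of 0.221 (0.155 to 0.313). Thinned shares of epithelial cells with a UMI were 3.45% in d/d (interval 1.13 to 7.86) and 9.25% in f/f (5.38 to 14.6), and overlapped. Macrophages had 30.2 CPM in d/d and 49.1 CPM in f/f, and stroma 0.769 CPM in d/d and 1.28 CPM in f/f. Within endothelium the level depended on the cluster. Cluster 22, led by the adhesion gene Selp and by Sele and Vwf, held 118 d/d and 3 f/f cells and had 148 CPM of Ptgs1 in d/d, against 55.6 CPM in d/d cells of cluster 7 (ratio 2.66, 2.09 to 3.39). In cluster 7, which both libraries shared, Ptgs1 stood at 55.6 CPM in d/d and 55.9 CPM in f/f, a ratio of 0.995 (0.782 to 1.26).

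The start regions of the cyclooxygenase genes differ in the letter patterns searched, and both are shown because the cyclooxygenases had unlike patterns of cells. The RefSeq table (GRCm38.p6) gives 250 bases before and 50 after each annotated start, and 9 of the 10 members have such a window. For Ptgs2 (chr1:150099781-150100080, plus strand) capitals mark GGGCGG, a letter pattern bound by Sp factors, and a run that joins the core of the cyclic AMP response element, TGACG read on the other strand, to the E-box CACGTG. These last 2 matches share 2 bases and lie 13 to 21 bases after the annotated start. The Ptgs1 window (chr2:36230176-36230475, plus strand) had no match on either strand to these or to the TATA box (TATAAA), the AP-1 pattern (TGANTCA), the NF-kB consensus and the CArG box, the site of serum response factor.
Ptgs2: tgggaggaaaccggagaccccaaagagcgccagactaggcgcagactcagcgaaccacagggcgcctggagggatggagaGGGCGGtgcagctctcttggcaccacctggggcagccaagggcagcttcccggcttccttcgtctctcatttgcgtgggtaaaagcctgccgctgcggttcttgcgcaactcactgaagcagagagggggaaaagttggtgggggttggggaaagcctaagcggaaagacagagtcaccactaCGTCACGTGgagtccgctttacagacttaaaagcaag
Ptgs1: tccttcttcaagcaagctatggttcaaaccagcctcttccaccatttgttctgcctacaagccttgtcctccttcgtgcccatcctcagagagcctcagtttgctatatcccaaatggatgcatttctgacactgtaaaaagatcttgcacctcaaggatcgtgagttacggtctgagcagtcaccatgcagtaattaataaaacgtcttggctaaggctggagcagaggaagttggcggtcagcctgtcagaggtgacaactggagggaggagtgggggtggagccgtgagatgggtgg
Among 27025 promoter windows of this length, 35.9% held GGGCGG, 21.0% TGACG, 7.24% CACGTG, 14.2% TATAAA, 7.93% TGANTCA, 8.18% the NF-kB consensus and 1.57% the CArG box. A match describes letters only, and none was tested for binding.

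Ptgs2 (ENSMUSG00000032487, plus strand, chr1:150100031-150108227) encodes cyclooxygenase 2, the inducible form, and had the highest d/d over f/f ratios among the members. Macrophage- or monocyte-like cells had 671 CPM in d/d (979 UMIs, 630 to 715) and 24.6 CPM in f/f (17 UMIs, 14.3 to 39.3), a ratio of 27.3 (17.0 to 47.1). After thinning to 2000 UMIs, 45.0% of d/d macrophages (116 of 258) and 3.28% of f/f macrophages (4 of 122) held a UMI, and without thinning 54.5% of d/d and 4.58% of f/f macrophages. Lymphatic endothelium, where few UMIs were found, had 0 of 55 such cells in d/d and 0 of 31 in f/f. Of all genes measured in macrophages 15.0% were at least 2-fold higher and 10.9% at least 2-fold lower in d/d; of the 3 members measured there Ptgs2 was higher and Hpgd lower. The libraries' macrophages sat in different clusters: 282 d/d and 16 f/f cells in cluster 11, led by Cxcl2, Lyz2 and Mmp12, and 12 d/d and 212 f/f cells in cluster 14, led by C1qa, Ccl8 and Cx3cr1. Median depth was 4245.5 UMIs in d/d and 2007 in f/f. Neutrophil markers summed to 140 CPM in d/d macrophages (5 of 5 detected) and 88.1 CPM in f/f macrophages (3 of 5 detected). Their part in the Ptgs2 values was not tested.

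Dendritic-like cells were the leading class for Ptgs2 in f/f and stood close to macrophages in d/d. They had 647 CPM in d/d (472 UMIs, 590 to 709) and 180 CPM in f/f (105 UMIs, 147 to 217), a ratio of 3.61 (2.91 to 4.50). The UMIs lay mostly in cluster 15, led by Cd209a and Il1b, with 1032 CPM in d/d (93 cells) and 351 CPM in f/f (94 cells), a ratio of 2.94 (2.37 to 3.68). Cluster 24, led by antigen presentation genes with Clec9a and Xcr1, had 49.1 CPM in d/d (14 UMIs) and 6.87 CPM in f/f (2 UMIs). Cells in the first of these clusters were thus the main dendritic source in both libraries. Among all genes measured in dendritic cells 9.12% were at least 2-fold higher and 8.58% at least 2-fold lower, and of the 2 members measured there Ptgs2 was higher.

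Pericyte-like cells, a class of vessel wall cells, had 35.9 CPM of Ptgs2 in d/d (186 UMIs, 30.9 to 41.5) and 1.43 CPM in f/f (3 UMIs, 0.295 to 4.19), a ratio of 25.1 (8.45 to 123). The d/d UMIs came from 47 of 1194 cells, at most 27 in a cell. These 47 cells had 5618 CPM of pericyte markers and 26.1 CPM of macrophage markers, against 6029 and 40.9 CPM in the other d/d pericytes. Dendritic markers stood at 11.2 CPM in the 47 cells and 7.74 CPM in the others, and T cell markers at 11.2 CPM in the 47 cells and 3.06 CPM in the others. The macrophage, dendritic and T cell values of the 47 cells rest on few UMIs and carry no interval, so no direction is read from them. Their part in the result was not tested. Both measured members were at least 2-fold higher in d/d pericytes, where 8.02% of all measured genes were higher and 7.79% lower. The libraries' pericytes sat largely in different clusters, with 467 d/d and 47 f/f cells in cluster 8, 635 d/d and 58 f/f cells in cluster 6, and 92 d/d and 273 f/f cells in cluster 10. In cluster 8 Ptgs2 had 55.6 CPM in d/d (124 UMIs) and 15.1 CPM in f/f (3 UMIs), a ratio of 3.69 (1.23 to 18.2), against 25.1 over the class. Cluster 8 was led by Pln, Sncg and Olfr78, none of them a pericyte marker of the list used, and held 2922 CPM of smooth muscle markers in d/d and 4172 CPM in f/f, against 597 CPM in d/d and 1251 CPM in f/f in cluster 6. In cluster 6, led by Rgs5, Ptgs2 had 24.3 CPM in d/d and 0 UMIs in f/f.

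T cell-like cells were not compared as a class, since f/f held 68 of them, but d/d T cells were the class after dendritic cells in Ptgs2 level, at 195 CPM (146 UMIs), against 33.8 CPM in f/f (8 UMIs). In d/d, 144 of these UMIs lay in cluster 13, led by Il17a, Cd163l1 and Cd3g, where 40 of 192 cells held Ptgs2. Cluster 13 stood at 262 CPM in d/d and 39.3 CPM in f/f, and cluster 25, led by Ccl5 and Cd3d, at 10.2 CPM in d/d. The 40 cells had 3854 CPM of T cell markers and 40.3 CPM of macrophage markers, against 3514 and 63.3 CPM in the other d/d cells of the cluster, and dendritic markers at 16.1 CPM against 7.03 CPM. The macrophage and dendritic values of the 40 cells rest on few UMIs and carry no interval. None of 5 neutrophil markers was detected in d/d T cells. Epithelium went the other way, with 9.01 CPM in d/d (38 UMIs, 6.37 to 12.4) and 50.5 CPM in f/f (112 UMIs, 41.6 to 60.7), a ratio of 0.178 (0.120 to 0.260). Thinned shares of epithelial cells with a UMI were 3.45% in d/d and 4.62% in f/f, which cannot be told apart at this depth. Smooth muscle had 1.84 CPM in d/d (16 UMIs) and 0 UMIs in f/f, stroma 3.31 CPM in d/d and 1.19 CPM in f/f, and blood endothelium 5.04 CPM in d/d and 5.21 CPM in f/f. That near-equality joins unlike parts: in endothelial cluster 7 Ptgs2 had 2.14 CPM in d/d (5 UMIs) and 8.66 CPM in f/f (24 UMIs), and 17 of the 24 d/d UMIs lay in cluster 22.

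**Figure D4:**
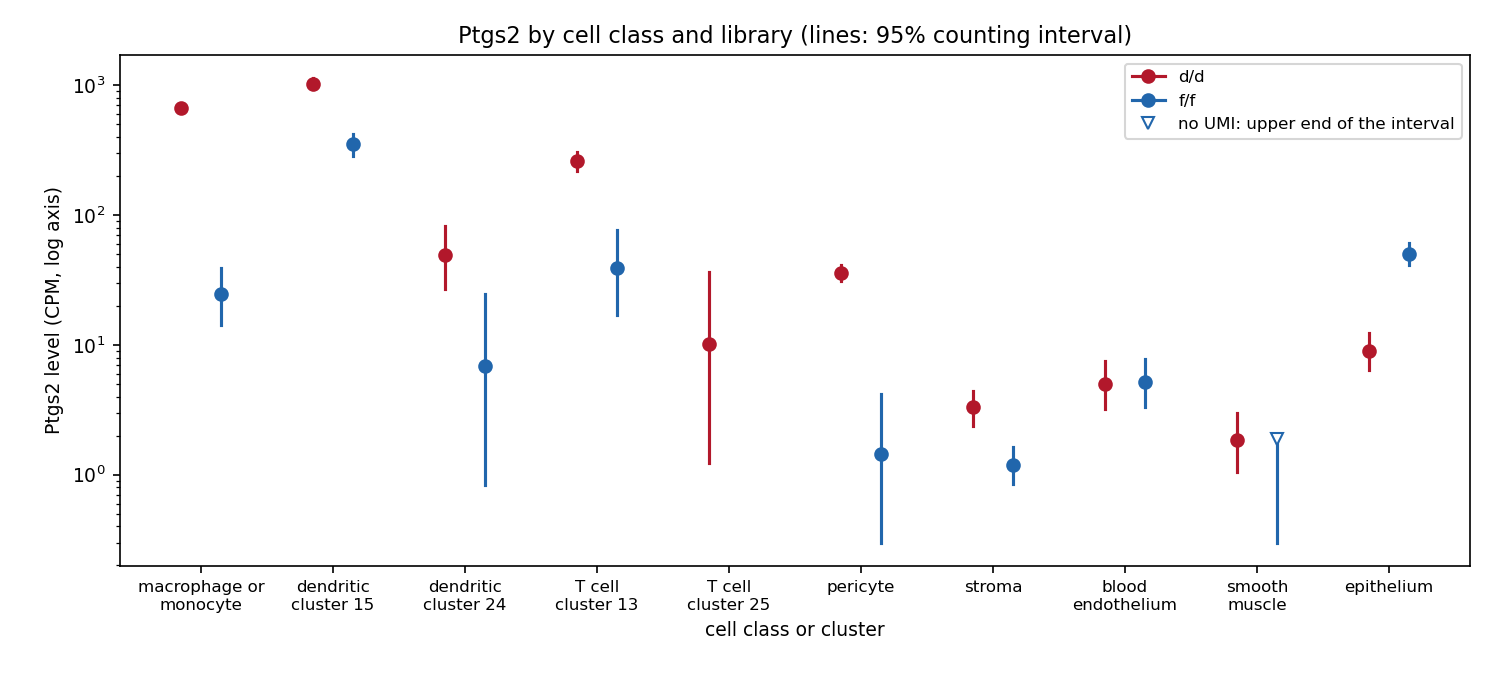
Ptgs2 level in CPM (log axis) by cell class or cluster, d/d left of f/f, with 95% counting intervals; an open triangle marks 0 UMIs at the upper end of the interval. Of the classes and clusters drawn with both libraries, macrophages, both dendritic clusters, T cell cluster 13, pericytes and stroma have the d/d point above the f/f point, epithelium has it below, blood endothelium shows 5.04 CPM in d/d and 5.21 CPM in f/f, and smooth muscle 1.84 CPM in d/d and no UMI in f/f.

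Ptgs2 is known as an immediate early gene that also answers to dissociation of tissue, and these uteri were minced and digested with collagenase and dispase, so 2 response lists stand beside it. Immediate early and heat shock genes, such as Fos and Hspa1a, were at least 2-fold higher in d/d for 14 of 20 measured in macrophages (list median log2 ratio 1.30, all genes 0.09) and for 18 of 21 in pericytes (1.83, all genes -0.11). They were so for 19 of 21 in stroma, 20 of 22 in blood endothelium and 14 of 22 in smooth muscle, but for 1 of 20 in dendritic cells (2 lower; median 0.01, all genes -0.14) and 5 of 22 in epithelium (3 lower). Inflammatory mediators were higher for 13 of 16 in macrophages (1 lower), with 17736 CPM summed in d/d and 2341 CPM in f/f, for 10 of 11 in pericytes, 11 of 14 in stroma, 7 of 11 in blood endothelium, 4 of 7 in smooth muscle, 5 of 11 in dendritic cells (1 lower) and 1 of 6 in epithelium. Over all measured genes the share at least 2-fold higher was 15.0% in macrophages, 8.02% in pericytes, 7.12% in stroma and 4.93% in blood endothelium. It was 6.12% in smooth muscle, 9.12% in dendritic cells and 8.56% in epithelium. The share at least 2-fold lower was 10.9% in macrophages, 8.58% in dendritic cells and 10.7% in epithelium. In macrophages the chemokine gene Cxcl2 stood at 9423 CPM in d/d and 429 CPM in f/f, and Il1b, an inflammatory cytokine gene, at 1591 CPM in d/d and 211 CPM in f/f. In blood endothelium, with 20 of 22 response genes higher, Ptgs2 had 5.04 CPM in d/d and 5.21 CPM in f/f. That pair had 24 UMIs in each library, was not called and joins unlike clusters, as given above. The part of this response in the Ptgs2 values was not tested.

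Ptges (ENSMUSG00000050737, minus strand, chr2:30889471-30929863) encodes the microsomal prostaglandin E synthase, which is often induced along with cyclooxygenase 2. Its UMIs lay mostly in stroma, at 20.8 CPM in d/d (271 UMIs, 18.4 to 23.5) and 16.3 CPM in f/f (547 UMIs, 15.0 to 17.7), a ratio of 1.28 (1.10 to 1.48). The gene was low where Ptgs2 was high: d/d macrophages had 1 Ptges UMI beside 979 of Ptgs2, and dendritic cells 0 in both libraries, which allows up to 4.12 CPM in d/d and 5.13 CPM in f/f (3 UMIs of the class total). Pericytes had 6.37 CPM in d/d (33 UMIs) and 20.1 CPM in f/f (42 UMIs). The highest f/f value, 38.0 CPM in T cells, rests on 9 UMIs in a class where stromal markers stood at 41.7% of their stromal level. In the shared stromal cluster 4, led by Clec3b, C3 and Cpz, Ptges stood at 46.1 CPM in d/d and 32.3 CPM in f/f, against 16.2 CPM in d/d cluster 3 and 16.2 CPM in f/f cluster 0. Cluster 4 held 96 of the 271 d/d and 65 of the 547 f/f stromal UMIs. Ptges was thus higher in cluster 4 than in those clusters but not confined to it.

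Ptgis (ENSMUSG00000017969, minus strand, chr2:167191805-167240604) encodes prostacyclin synthase, whose product relaxes vessels. Smooth muscle led in both libraries, at 86.9 CPM in d/d (757 UMIs, 80.8 to 93.3) and 148 CPM in f/f (288 UMIs, 131 to 166), a ratio of 0.588 (0.513 to 0.676). Blood endothelium followed with 63.0 CPM in d/d and 38.4 CPM in f/f (1.64, 1.36 to 1.99), and cluster 7 alone gave a ratio of 1.75 (1.38 to 2.23). In smooth muscle the gene was highest in cluster 2, led by Pcp4, Actg2 and Myh11, with 133 CPM in d/d and 201 CPM in f/f, against 39.0 CPM in d/d and 17.6 CPM in f/f in cluster 5. Of all genes measured in smooth muscle 6.12% were at least 2-fold higher and 2.12% lower in d/d, and none of the 4 members measured there was called.

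In stroma Ptgis was at least 2-fold higher in d/d, with 21.1 CPM in d/d (275 UMIs, 18.7 to 23.8) and 5.63 CPM in f/f (189 UMIs, 4.86 to 6.50), a ratio of 3.75 (3.11 to 4.54). Thinned shares were 6.14% of d/d and 1.42% of f/f stromal cells, against 0 of 145 d/d and 0 of 173 f/f epithelial cells. Among all genes measured in stroma 7.12% were at least 2-fold higher and 7.67% at least 2-fold lower, and of the 7 members measured there Ptgis was higher and Ptger3 lower. The call ended in the shared cluster 4, with 95.6 CPM in d/d and 54.6 CPM in f/f (ratio 1.75, 1.38 to 2.23). Outside it the level was 7.28 CPM in d/d cluster 3 and 2.86 and 2.13 CPM in f/f clusters 0 and 1. Cluster 4 held 503 of 1710 d/d and 412 of 4595 f/f stromal cells, so part of the class ratio lies in this makeup. Pericytes had 39.2 CPM in d/d and 11.5 CPM in f/f over the class (ratio 3.42, 2.24 to 5.47). Cluster 8, which held many smooth muscle markers, carried 183 of the 203 d/d UMIs. Within it Ptgis had 82.1 CPM in d/d and 60.2 CPM in f/f (1.36, 0.761 to 2.69). Within cluster 6, led by Rgs5, the order turned, with 8.24 CPM in d/d and 62.6 CPM in f/f (10 UMIs).

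Hpgd (ENSMUSG00000031613, plus strand, chr8:56294585-56321043) encodes the dehydrogenase that inactivates prostaglandins E and F. Epithelium led with 55.0 CPM in d/d (232 UMIs, 48.1 to 62.5) and 97.4 CPM in f/f (216 UMIs, 84.8 to 111), a ratio of 0.565 (0.467 to 0.683). Macrophages had 32.2 CPM in d/d (47 UMIs) and 76.6 CPM in f/f (53 UMIs), a ratio of 0.421 (0.278 to 0.636). That call held under 5 of 10 alternative settings, and with doublets kept the log2 ratio was -0.89 in place of -1.25. Stroma had 27.9 CPM in d/d and 20.1 CPM in f/f (1.39, 1.22 to 1.58). Cluster 4 held 236 of the 363 d/d and 335 of the 676 f/f UMIs, and there the order turned: 113 CPM in d/d and 166 CPM in f/f (0.681, 0.574 to 0.807). The highest level of any class was in 37 mesothelium-like cells, from the outer lining, which were found in f/f only: 879 CPM of Hpgd (171 UMIs, 752 to 1021), with 206 CPM of Ptgis, 139 CPM of Ptgs1 and 97.7 CPM of Ptger3.

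Receptors for prostaglandin E were spread over different cells. Ptger2 (ENSMUSG00000037759, plus strand, chr14:44988195-45003820) encodes EP2, which raises cyclic AMP. Epithelium had 0.474 CPM in d/d (2 UMIs, 0.0574 to 1.71) and 41.9 CPM in f/f (93 UMIs, 33.8 to 51.3), a ratio of 0.0113 (0.00135 to 0.0420). Of the f/f UMIs 92 lay in luminal-like cells, and f/f glandular-like cells had 0.865 CPM (1 UMI), so the call ended against that part alone. Thinned shares were 0.690% of d/d and 5.78% of f/f epithelial cells, against 0 of 1595 d/d and 2 of 4428 f/f stromal cells. Outside epithelium T cells had its highest level, 20.1 CPM in d/d (15 UMIs) and 12.7 CPM in f/f (3 UMIs). The start window of this gene (chr14:44987861-44988160, plus strand) is shown for the size of its difference, and it held none of the 7 patterns on either strand.
Ptger2: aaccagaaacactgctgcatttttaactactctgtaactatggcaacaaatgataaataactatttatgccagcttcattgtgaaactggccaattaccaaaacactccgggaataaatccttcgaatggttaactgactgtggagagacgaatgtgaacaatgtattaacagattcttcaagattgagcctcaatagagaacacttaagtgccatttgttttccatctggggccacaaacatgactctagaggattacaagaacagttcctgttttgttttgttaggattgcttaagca

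Ptger4 (ENSMUSG00000039942, minus strand, chr15:5206661-5244187) encodes EP4, which also raises cyclic AMP, and was the most widespread receptor. Dendritic cells led with 306 CPM in d/d (223 UMIs, 267 to 349) and 245 CPM in f/f (143 UMIs, 206 to 288), a ratio of 1.25 (1.01 to 1.55). Macrophages had 167 CPM in d/d and 140 CPM in f/f (1.19, 0.936 to 1.52), and stroma 72.7 CPM in d/d and 112 CPM in f/f (0.650, 0.605 to 0.698), with 90.8 CPM in d/d and 93.9 CPM in f/f in the shared cluster 4 (0.967, 0.786 to 1.19). Immune cells and stroma thus carried this receptor in both libraries. A further 113 f/f cells in a cluster left unnamed, with a median of 1635 UMIs, had 247 CPM (52 UMIs). The dendritic clusters differed: in cluster 24 Ptger4 had 228 CPM in d/d (65 UMIs) and 79.0 CPM in f/f (23 UMIs), a ratio of 2.88 (1.77 to 4.86), and in cluster 15 it had 356 CPM in d/d and 409 CPM in f/f (0.871, 0.683 to 1.11). Epithelium was lower in d/d, with 13.3 CPM (56 UMIs) against 42.4 CPM in f/f (94 UMIs), a ratio of 0.313 (0.221 to 0.441). Against f/f glandular-like cells alone that ratio was 0.511 (0.322 to 0.825), just short of 2-fold. Blood endothelium had 25 UMIs in d/d and 50 in f/f, a ratio of 0.484 (0.287 to 0.797), the only call among 3 members measured there, where 4.93% of all measured genes were higher and 3.22% lower.

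Ptger3 (ENSMUSG00000040016, plus strand, chr3:157566892-157645888) encodes EP3, which lowers cyclic AMP and favours contraction. Smooth muscle was its receiver, at 139 CPM in d/d (1213 UMIs, 131 to 147) and 258 CPM in f/f (504 UMIs, 236 to 282), a ratio of 0.539 (0.485 to 0.599). Thinned shares were 17.3% of d/d and 31.6% of f/f smooth muscle cells, against 0 of 145 d/d and 1 of 173 f/f epithelial cells. The class ratio lay within 2-fold, but both clusters of the class passed it. In cluster 5, led by Acta1, Chrdl2 and Pcp4, Ptger3 had 260 CPM in d/d and 641 CPM in f/f (0.406, 0.360 to 0.458). In cluster 2 it had 23.8 CPM in d/d and 102 CPM in f/f (0.233, 0.180 to 0.302). Cluster 5, where the gene is high, made up 634 of 1477 d/d and 149 of 445 f/f cells, so the makeup of the class moved the class ratio towards 1.

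Stroma was the second place of a lower Ptger3 level, with 2.15 CPM in d/d (28 UMIs, 1.43 to 3.11) and 19.5 CPM in f/f (653 UMIs), a ratio of 0.111 (0.0729 to 0.161). The f/f UMIs came from clusters almost wholly of that library: 28.5 CPM in cluster 1, 17.4 CPM in the dividing cluster 9 and 13.7 CPM in cluster 0. The main d/d cluster 3 had 1.89 CPM. In the shared cluster 4 the level was low in both, 3.84 CPM in d/d (8 UMIs) and 5.46 CPM in f/f (11 UMIs), and the call ended. Smooth muscle markers in stroma stood at 1.73% of their smooth muscle level in d/d (112 CPM) and 1.82% in f/f (213 CPM).

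Ptgfr (ENSMUSG00000028036, minus strand, chr3:151796502-151837630) encodes FP, the contractile receptor for prostaglandin F. It shared its receiver with Ptger3: smooth muscle had 66.4 CPM in d/d (579 UMIs, 61.1 to 72.1) and 75.9 CPM in f/f (148 UMIs, 64.1 to 89.1), a ratio of 0.876 (0.730 to 1.06). Cluster 5 had 113 CPM in d/d and 206 CPM in f/f (0.546, 0.445 to 0.674), and cluster 2 had 22.2 CPM in d/d and 22.4 CPM in f/f. Within a library, cluster 5 exceeded cluster 2 by ratios of 5.08 in d/d and 9.22 in f/f for Ptgfr and of 10.9 in d/d and 6.29 in f/f for Ptger3, whereas for Ptgis cluster 2 exceeded cluster 5 by ratios of 3.40 in d/d and 11.4 in f/f. The muscle thus held 1 cluster with both contractile receptors and another with more prostacyclin synthase. Of thinned cells with a Ptger3 UMI, 20.2% in d/d (49 of 242) and 25.4% in f/f (31 of 122) also held Ptgfr, against 7.51% of d/d and 10.2% of f/f cells without Ptger3. Stroma had 9.69 CPM of Ptgfr in d/d and 8.55 CPM in f/f (1.13, 0.911 to 1.40).

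The start windows of these receptors are set side by side because they share a receiver class. Capitals mark GGGCGG, read on either strand, 3 times in Ptger3 (chr3:157566626-157566925, plus strand) and 2 times in Ptgfr (chr3:151837479-151837778, minus strand). Neither window held any of the other 6 patterns.
Ptger3: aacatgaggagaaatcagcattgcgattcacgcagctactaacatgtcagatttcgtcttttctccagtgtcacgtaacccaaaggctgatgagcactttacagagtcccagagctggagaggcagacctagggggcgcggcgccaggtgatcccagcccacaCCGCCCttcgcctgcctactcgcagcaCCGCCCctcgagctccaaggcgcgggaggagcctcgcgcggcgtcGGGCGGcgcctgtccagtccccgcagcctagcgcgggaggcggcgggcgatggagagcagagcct
Ptgfr: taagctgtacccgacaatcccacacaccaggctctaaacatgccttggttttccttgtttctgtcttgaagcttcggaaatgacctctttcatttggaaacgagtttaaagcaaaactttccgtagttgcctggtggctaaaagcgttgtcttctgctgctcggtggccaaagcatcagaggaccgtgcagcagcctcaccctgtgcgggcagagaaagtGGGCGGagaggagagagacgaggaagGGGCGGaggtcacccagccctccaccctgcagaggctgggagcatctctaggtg

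The other genes of the pathway came from a list of 46, of which 45 were found in the files. Percentages beside their counts are the shares of all measured genes of the class, higher and then lower. In stroma 5 of 22 measured were at least 2-fold higher and 1 lower (7.12% and 7.67%). In epithelium 4 of 16 were higher and 2 lower (8.56% and 10.7%), and in pericytes 0 of 15 higher and 3 lower (8.02% and 7.79%). Blood endothelium had 1 of 18 each way (4.93% and 3.22%), and macrophages 0 of 9 higher and 1 lower (15.0% and 10.9%). Smooth muscle (12 measured, 6.12% and 2.12%) and dendritic cells (3 measured, 9.12% and 8.58%) had 0 either way. The epithelial calls were large, but they set d/d cells against the mixture of f/f parts. Alox15, a lipoxygenase gene that competes for the same fatty acids, had 2.37 CPM in d/d (10 UMIs) and 453 CPM in f/f (1005 UMIs), a ratio of 0.00523. Pla2g10, which encodes a secreted phospholipase, had 34.8 CPM in d/d and 305 CPM in f/f (0.114, 0.0949 to 0.137). Alox15 was among the leading genes of the luminal-like sub-cluster and Pla2g10 among those of the glandular-like sub-cluster. Each of these sub-clusters held only 1 d/d cell. The organic anion transporter gene Slco3a1 was higher, with 68.5 CPM in d/d and 13.5 CPM in f/f (5.07, 3.47 to 7.64), as were the carbonyl reductase gene Cbr3 (3.42), Alox5ap (2.54), which serves leukotriene synthesis, and Rxra (2.25), a nuclear receptor gene.

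In stroma Ltc4s, the leukotriene C4 synthase gene, had 13.5 CPM in d/d (176 UMIs) and 0.507 CPM in f/f (17 UMIs), a ratio of 26.7 (16.2 to 46.9). Slco3a1 (5.75), the prostacyclin receptor gene Ptgir (3.80, 2.47 to 5.90), the thromboxane receptor gene Tbxa2r (2.78) and Ptgfrn (2.46), which encodes a partner of FP, were higher as well, and Alox5ap (0.432) was lower. Prostacyclin synthase and the prostacyclin receptor were thus both above 2-fold in the stroma as a class. In the shared cluster 4, though, the Ptgis ratio was 1.75. The other stromal ratios given here are for the class only. In pericytes Akr1b3 (0.410), an aldose reductase gene linked to prostaglandin F synthesis, Akr1b8 (0.477) and Alox5ap (0.209) were lower. Ltc4s was lower in macrophages (0.171) and blood endothelium (0.470), where Alox12, a platelet-type lipoxygenase gene, was higher (2.57).

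Over 19 combinations of library and class with at least 50 cells, the genes most like each member were ranked by Pearson's r of log2(CPM + 5) among 12516 genes. Points from 1 library share their library and depth, so the values are descriptive. Ptgs2 was most like Rel (r = 0.926), an NF-kB subunit gene, and Bcl2a1a (0.923). Ptger3 was most like Bves (0.950), Dpp6 (0.948) and Ptgfr (0.942), and Ptgfr like Chodl (0.956). Akr1c14 (0.936) was among the genes most like Ptgis. Pla2g4a was nearest to Igf2bp2 (0.919), Ptges to Tbx18 (0.926), Ptger4 to Slc35c2 (0.896), Hpgd to Tns3 (0.836) and Pla2g4a (0.834), and Ptgs1 to Glul (0.830). Ptger2 had too few UMIs to rank.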

How the data were processed

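Droplet 3′ single-cell libraries from whole uterus, 1 per genotype, were used. The authors' deposited files are matrices of whole-number UMI counts, 1 per gene and cell barcode and not normalized, per the file headers. The submitters' processing notes name Cell Ranger 3.0.1 and mm10, while the file headers name cellranger 6.0.1, so the version is uncertain. Barcodes under 500 UMIs had been left out of the deposited counts. The libraries held 44745031 UMIs in 6661 d/d barcodes and 55080123 UMIs in 8164 f/f barcodes. Each library's depth per class sets the intervals.

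Cells needed 1000 UMIs or more, 500 detected genes or more and a mitochondrial share of no more than 20%, which left 6325 d/d and 7610 f/f cells. Doublets were scored with Scrublet, and the top 0.8% per 1000 barcodes were removed (348 d/d and 515 f/f), since its automatic threshold marked 1 f/f barcode. Cells were scaled to 10000 UMIs, logged and clustered together on 2000 variable genes without pathway genes, 30 components and 15 neighbours (scanpy 1.11.5, leidenalg 0.10.2, resolution 1). Clusters were named from marker lists, with at least 3 markers detected. Epithelial cells were split once more (resolution 0.5). A sub-cluster with more stromal than epithelial marker UMIs (11 d/d and 79 f/f cells) was set aside, a rule set after seeing the data.

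Per library and class, UMIs were added up and given as CPM of the class total, with exact Poisson intervals. Ratios are d/d over f/f with conditional exact intervals, and shares have Clopper-Pearson intervals, with cells thinned to 2000 UMIs (scipy 1.17.1). Interval code was tested on simulated data. A count of 0 was set to 3 UMIs in a ratio. A pair was called where the ratio reached 2-fold and the higher library held 50 UMIs or more, and no test was made. All 10 members are named. Of the other pathway genes those called are named, at most 8 per class, and the 3 most alike genes per member were ranked, of which 1 is not reported here. The members and lists were chosen with earlier results of these data known. Gene positions come from the GENCODE annotation of GRCm38. Genes on the other strand overlap Ptgis (Gm14291), Ptger2 (Gm17173) and Ptger4 (Ttc33), and the sources used here do not state that counting used strand. Alternatives covered scaling, cell filters, doublets, clustering, thresholds and parts of classes.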

Additional observations from a re-analysis of the deposited data

Results flagged for a closer look

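Ptgs2 moved in opposite directions between cell classes under the same contrast. Its log2 ratio of d/d over f/f was 4.77 in macrophage- or monocyte-like cells, 4.65 in pericyte-like cells and 1.85 in dendritic-like cells, against -2.49 in epithelium-like cells. With 1 library per genotype the difference between classes was not tested. The epithelial value depends on which f/f cells it is set against.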

How the results depend on the processing

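No paired analysis was possible because each genotype is 1 library. For the same reason no replicate could be left out. Counts of called pairs stayed within 1.5 times the reported 5 higher and 8 lower under every alternative run except the minimum of 2000 UMIs per cell, which gave 8 higher pairs. There most d/d stroma-like cells were left unnamed, and 4 stromal pairs were gained: Hpgd, Pla2g4a and Ptges higher, and Ptgfr lower with a log2 ratio of -1.17. Of 289 recomputed log2 ratios 253 stayed within their counting interval, 34 moved and 2 called ratios changed sign: against f/f glandular-like cells alone the epithelial log2 ratio was 0.91 for Ptgs1 and 3.38 for Ptgs2. Among the moved, uncalled ratios also changed sign: Hpgd in epithelium (3.28 against f/f luminal-like cells), Hpgd and Ptgfr in stroma (-0.55 and -0.46 in the shared cluster; Ptgfr also at 2000 UMIs) and Ptger4 in dendritic cells (-0.07 at resolution 0.5). Trimmed-mean scaling (edgeR 4.0.16) moved the median of all genes from -0.14 to 0.30 in dendritic cells, from 0.09 to 0.44 in macrophages, from -0.11 to 0.13 in pericytes, from -0.06 to 0.14 in epithelium and from 0.03 to 0.17 in smooth muscle. It turned no member's direction and ended the Hpgd call in macrophages, which was also lost with a minimum of 2000 UMIs, at most 10% mitochondrial UMIs, doublets kept and separate clustering. The Ptger4 call in blood endothelium was lost at the minimum of 2000 UMIs. The other 11 called pairs were kept under all 10 alternatives of scaling, cell filters, doublets and clustering. Within parts of a class, besides Ptgs1 and Ptgs2 in epithelium, calls ended for Ptgis in pericytes (ratio 1.36 in cluster 8) and for 4 others: in the shared stromal cluster the log2 ratio was 0.81 for Ptgis and -0.51 for Ptger3, and against f/f glandular-like cells -0.87 for Ptger2 and -0.97 for Ptger4. The leading class changed for 2 of 20 pairs of gene and library when cells weighed equally. With cells thinned to 1000 UMIs, 35 of 48 shares left their interval. Fewer UMIs per cell lower such a share and let other cells qualify, so this count does not show how stable the shares are. Pairs under 50 UMIs were left uncalled, also where the interval lay past 2-fold, as for Ptgs1 in smooth muscle (44 d/d and 33 f/f UMIs, ratio 0.298, 0.186 to 0.484) and Ptger3 in macrophages (4 d/d and 15 f/f UMIs, 0.127, 0.0306 to 0.397).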
